A study of Mus musculus with 2 samples.

Results

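The maternally methylated imprinted loci described here are the 10 genes Snrpn, Peg3, Mest, Igf2r, Kcnq1ot1, Plagl1, Grb10, Peg10, Nnat and Impact, each taken with 5 kb on either side, out of 32093 protein-coding and long noncoding genes of the GENCODE vM21 annotation. The genes were chosen by name and not by their values. The DNA came from E14 cells, a mouse embryonic stem cell line, grown on gelatin in medium with 10% fetal bovine serum per the sample labels (the methods of the paper give another share) and 1000 U/mL of LIF, the cytokine that keeps such cells undifferentiated. Reads were not assigned to a parental copy here. The 2 replicates are DNA from separate passages of this 1 line under this 1 condition, so no groups of samples could be compared and the spread between replicates is that between passages together with that between their libraries. All cells carry the genotype of the line, which is not compared with any other genotype, and a DNA measurement offers no marker RNAs against which to check the cell type. In SCoTCH-seq both strands of a molecule are resolved together, and every CpG receives a joint state, in which the first letter is the plus strand and the second the minus strand (C unmodified, M 5-methylcytosine, H 5-hydroxymethylcytosine). A call is 1 such reading of 1 CpG on 1 molecule.

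Imprinted genes are expressed from 1 parental copy. At the loci chosen here the egg's copy receives methylation over a CpG-rich control region, usually a promoter, while the sperm's copy is left bare, and the difference is kept through later cell divisions. A mixture of fully methylated (MM) and fully unmodified (CC) molecules is therefore the textbook picture of such a region, and states with the modification on 1 strand only (MC/CM and HC/CH) are those expected after replication or during demethylation. At Igf2r the control region is the promoter of the noncoding RNA Airn inside the gene, and at Grb10 it is an internal promoter, so both were read beside the genes' own promoters.

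Sequences from 6 of these control regions, which cover high and low MM, are shown around TGCCGC, the motif in which the zinc-finger protein ZFP57 binds a methylated CpG. Each is the plus strand of GRCm38 (mm10) as in RefSeq, that is, of the C57BL/6J reference and not of the E14 line. Each is centred on the CpG of the motif site with the most calls in replicate 1 that lies in no exon of a coding gene. Capitals mark that motif, TGCCGC or its reverse complement GCGGCA, and further copies in lower case are not marked.
Mest: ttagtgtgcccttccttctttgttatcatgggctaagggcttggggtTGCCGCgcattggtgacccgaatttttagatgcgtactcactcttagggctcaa
Airn: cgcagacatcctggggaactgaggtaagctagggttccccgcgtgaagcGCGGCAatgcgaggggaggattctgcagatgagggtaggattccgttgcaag
Plagl1: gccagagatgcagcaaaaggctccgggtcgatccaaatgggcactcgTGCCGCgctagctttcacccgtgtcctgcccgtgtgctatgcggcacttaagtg
Peg3: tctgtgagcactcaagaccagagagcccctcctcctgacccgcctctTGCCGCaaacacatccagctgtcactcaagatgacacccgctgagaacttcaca
Kcnq1ot1: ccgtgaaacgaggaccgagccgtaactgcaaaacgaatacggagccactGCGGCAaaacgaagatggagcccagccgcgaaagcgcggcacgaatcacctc
Peg10: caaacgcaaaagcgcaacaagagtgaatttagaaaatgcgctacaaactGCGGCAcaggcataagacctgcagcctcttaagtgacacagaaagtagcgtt

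The Mest stretch (chr6:30737559-30737659) lies in an intron of the gene, with its CpG at -441 bases from the TSS used here, and gave 4 CC and 3 MM among 8 calls in replicate 1. The Airn stretch (chr17:12741402-12741502) lies in an exon of Airn and an intron of Igf2r, and its 10 calls in replicate 1 split into 5 CC and 5 MM. The Plagl1 stretch (chr10:13091165-13091265) is intronic and gave 7 CC and 1 MM of 8 calls. None of these 3 sites was covered in replicate 2.

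The Peg3 stretch (chr7:6728476-6728576), also intronic, gave 8 CC and 2 MM of 11 calls in replicate 1 and 5 CC and 0 MM of 6 calls in replicate 2. The Kcnq1ot1 stretch (chr7:143295620-143295720) lies in the exon of this noncoding RNA and in an intron of Kcnq1, and gave 9 CC and 1 MM of 10 calls, then 5 CC of 5 calls. The Peg10 stretch (chr6:4748444-4748544), in an intron, gave 11 CC and 1 MM of 12 calls in replicate 1 and was not covered in replicate 2. At these single sites CC calls outnumbered or equalled MM calls, with too few calls each to order the loci.

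Over the 10 loci the reference holds 7027 CpGs. Replicate 1 covered 4781 of them (68.0%, against 62.5% of all CpGs of the genome) with 51235 calls, and replicate 2 covered 1980 (28.2%, against 22.5%) with 12670 calls. Mean depth per covered site ran from 9.64 to 11.8 calls among the loci in replicate 1 and from 6.15 to 6.59 in replicate 2, so replicate 1 carries most of the precision. In the methylated Lambda control DNA, 91.0% of calls in replicate 1 and 92.4% in replicate 2 were MM, and in the unmethylated pUC19 control 99.7% and 99.4% were CC.

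The promoters of the 10 loci were mostly CC, and the MM that remained differed among them. Levels are given for the CpG-rich core of each promoter, the run of adjacent 1 kb bins with at least 20 reference CpGs each that holds the TSS or lies next to it. With Airn and the internal promoter of Grb10 there were 12 cores, in which replicate 1 covered 797 of 1642 CpGs (7475 calls) and replicate 2 covered 316 (1973 calls). CC ranged from 63.3% to 98.0% of calls in replicate 1 and from 59.5% to 100% in replicate 2. MM reached 27.3% at most in replicate 1 and 27.0% in replicate 2, so no core was split equally between CC and MM. Over sites with at least 10 calls MM was higher in 8 of 11 cores of replicate 1, where it was 33.9% at Plagl1, 30.6% at Airn, and 16.9% and 11.2% at the 5′ and internal promoters of Grb10. In replicate 2, where few sites are that deep, it was higher in 2 of 5 cores, with 63.6% at Mest and 40% at the internal promoter of Grb10. It was lower at Nnat (9.09%), Peg10 and Impact (0% each). Each of these 5 cores held under 20 modified calls at such sites. These percents of replicate 2 are therefore too imprecise to set beside the levels over all sites. MM made up at least 10% of calls in 7 of 12 cores in each replicate, where 75% of all CpG-rich 1 kb bins in replicate 1 and 71.1% in replicate 2 did. Those are single bins that need not lie at a TSS, so the shares are not of like regions. Snrpn was among the 7 only in replicate 1, and the internal promoter of Grb10 only in replicate 2. The cores were defined after the values were seen.

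Mest, which encodes a protein of the alpha/beta hydrolase family, had the highest mean MM. Its core (chr6:30735001-30739000, 4 kb, of which 422 bases are exonic) had 71.3% CC and 23.9% MM on 1050 calls in replicate 1, and 68.6% CC and 26.0% MM on 242 calls in replicate 2. The MM level was 25.0% ± 1.5 (SD, n = 2). Its exact (Clopper-Pearson) 95% interval was 21.4 to 26.6% in replicate 1 and 20.6 to 32.0% in replicate 2, so both intervals lay below an equal split. Such intervals treat calls as independent. Calls of neighbouring CpGs can come from 1 molecule, and the intervals are too narrow to the extent that they do.

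Plagl1, a zinc-finger transcription factor, had the highest MM of replicate 1. Its 2 kb core (chr10:13090001-13092000) had 63.3% CC and 27.3% MM on 479 calls in replicate 1 and 69.8% CC and 20.4% MM on 162 calls in replicate 2. The mean MM was 23.9% ± 4.93 (SD, n = 2). Nnat, a small membrane protein of the developing brain whose gene lies inside Blcap, had 68.2% CC and 24.5% MM on 576 calls in replicate 1 and 75.2% CC and 16.8% MM on 137 calls in replicate 2, with a mean MM of 20.6% ± 5.44 (SD, n = 2) in its 3 kb core (chr2:157559001-157562000). These 2 loci and Mest do not differ in MM beyond the spread between replicates.

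Airn, the noncoding RNA that silences Igf2r on the paternal copy, had 72.7% CC and 20.2% MM on 322 calls in its 2 kb core (chr17:12741001-12743000) in replicate 1, and 74.7% CC and 12.0% MM on 83 calls in replicate 2. The core at the TSS of Igf2r itself, the receptor that clears the growth factor IGF2, was almost wholly unmodified, with 98.0% CC and 0.662% MM on 151 calls in replicate 1 and 21 CC of 21 calls in replicate 2. The 2 promoters of this locus thus differed in replicate 1, where the MM intervals were 15.9 to 25.0% for Airn and 0.0168 to 3.63% for Igf2r. In replicate 2 the intervals, 5.93 to 21.0% and 0 to 16.1%, overlapped. The size of the difference depends on the limits, since within 1 kb of each TSS replicate 1 had 26.2% MM at Airn and 17.3% at Igf2r. In replicate 2 these windows had 0% MM at Airn on 44 calls and 0% at Igf2r on 30 calls.

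Peg3, a zinc-finger protein whose promoter is shared back to back with Usp29, was lower and agreed between replicates. Its 4 kb core (chr7:6728001-6732000) had 84.1% CC and 12.0% MM on 845 calls in replicate 1 and 83.2% CC and 13.1% MM on 244 calls in replicate 2, a mean MM of 12.5% ± 0.822 (SD, n = 2). Snrpn, which encodes a core protein of the spliceosome, had 77.7% CC and 12.5% MM on 112 calls in replicate 1, but 51 CC of 51 calls in replicate 2. With 7 of 35 CpGs covered there, the exact 95% interval for MM in replicate 2 reached up to 6.98%, and that of replicate 1 ran from 7.01 to 20.1%.

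Kcnq1ot1, Peg10 and Impact had little MM. Kcnq1ot1, the noncoding RNA that silences neighbouring genes in cis from within Kcnq1, had 93.6% CC and 4.64% MM on 754 calls in its 2 kb core (chr7:143295001-143297000) in replicate 1, and 89.2% CC and 9.87% MM on 223 calls in replicate 2. Peg10, a retrotransposon-derived gene needed for the placenta, had 92.8% CC and 4.93% MM on 1115 calls (core chr6:4746001-4750000) and 96.7% CC and 2.86% MM on 419 calls. Impact, a regulator of the amino acid sensor GCN2, had 96.6% CC and 2.10% MM on 999 calls and 96.2% CC and 2.97% MM on 236 calls. MM in these 3 cores, at 7.25% ± 3.69, 3.90% ± 1.46 and 2.53% ± 0.611 (SD, n = 2 each), lay below that of Mest in both replicates, and both replicates were above the 0.00161% and 0.0157% MM of the pUC19 control.

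Grb10, an adaptor protein that restrains insulin and growth factor signalling, was read at its 5′ promoter (chr11:12036001-12039000) and at its internal promoter (chr11:12025001-12027000). The 5′ promoter had 80.3% CC and 10.7% MM on 605 calls in replicate 1 and 59.5% CC and 27.0% MM on 74 calls in replicate 2. The internal promoter had 89.9% CC and 5.78% MM on 467 calls, then 76.5% CC and 18.5% MM on 81 calls. Replicate 2 covered only 4.92% and 8.59% of the CpGs of these cores, and those sites were not typical of the rest. Over the sites covered in both replicates, replicate 1 had 16.5% MM at the 5′ promoter and 12.9% at the internal one, higher than over all its sites, and replicate 2 had 31.5% and 21.1%. The MM of the 5′ promoter depends on the limits of the core, since it fell to 3.22% and 3.70% when only bins with at least 30 reference CpGs were kept. At Igf2r, in turn, the window of 1 kb on either side of the TSS had 17.3% MM in replicate 1, and it takes in part of the bin upstream of the core described below. In replicate 2 such a window had 16.1% MM at Mest, 4.76% at Nnat and 7.14% at Impact, so these levels also depend on the limits.

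By mean MM the cores ran from Mest through Plagl1, Nnat, Grb10, Airn, Peg3, the internal promoter of Grb10, Kcnq1ot1, Snrpn, Peg10 and Impact to the promoter of Igf2r. Neighbours in this order overlap in their 2 replicates, except Impact (2.10% and 2.97%) and Igf2r (0.662% and 0%). The order also depends on the sites read, since over the sites covered in both replicates Plagl1 had 28.0% and 32.7% MM, above Mest with 24.5% and 29.7%, and Nnat had 32.1% and 22.1%.

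**Figure D1:**
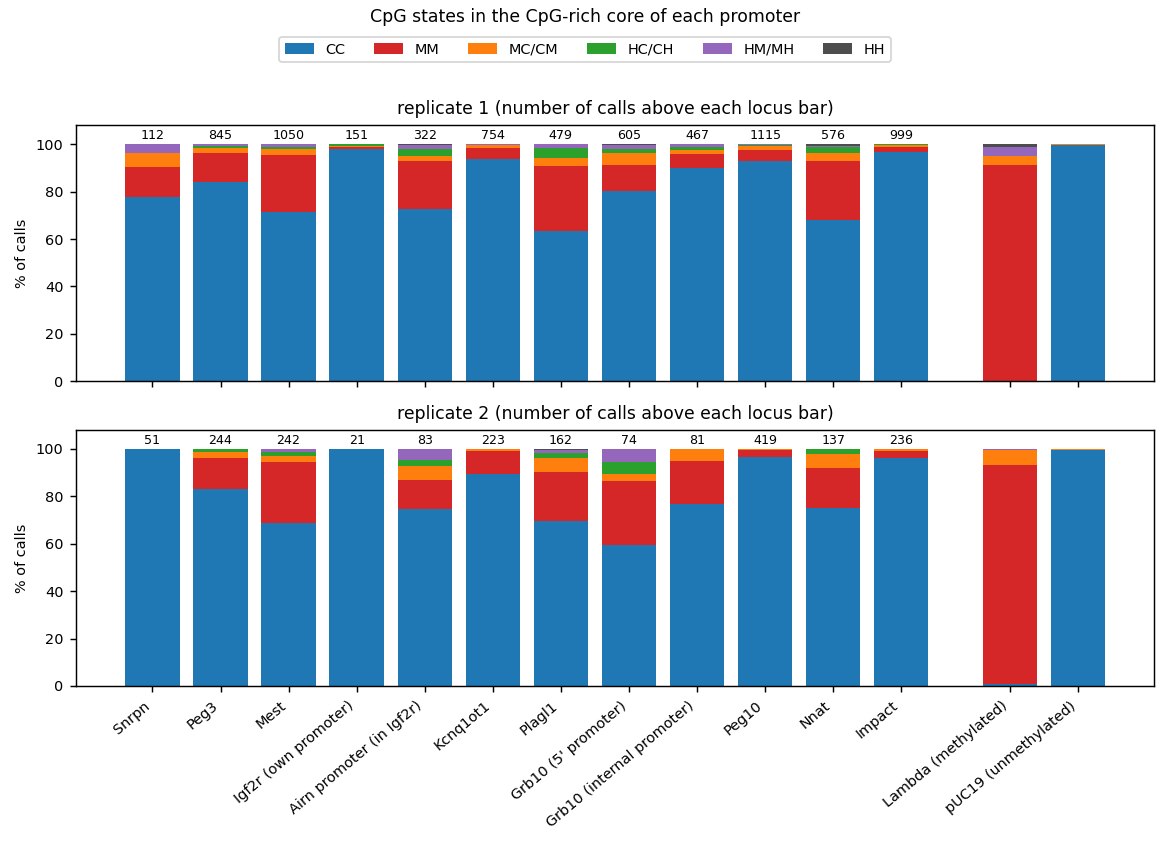
Share of calls (percent) in each of the 6 groups of CpG states in the CpG-rich core of each promoter, with the methylated Lambda and unmethylated pUC19 controls at the right, replicate 1 above and replicate 2 below. Each bar pools all calls of a core, whose number stands above it, and MM stays at or below 27.3% in every core while CC is the largest share in each core.

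MM calls were spread near evenly over the covered sites of some cores and unevenly over those of others. Among the 797 sites covered in replicate 1, 404 had both CC and MM calls, 329 had CC calls only and 0 had MM calls only. In replicate 2 the corresponding counts of 316 sites were 132, 168 and 0. In Mest 88 of 101 sites of replicate 1 held an MM call, where 91.7 would be expected from the depth of each site if MM were equally likely at every one. Nnat had 51 of 55 sites against 49.4 and Peg3 57 of 84 against 57.4. The cores with less MM had it on fewer sites, near the number expected. These were Kcnq1ot1 (32 of 80 against 28.3), Peg10 (41 of 117 against 43.4) and Impact (19 of 93 against 18.7). MM was on fewer sites than an even spread would give at both promoters of Grb10, with 22 of 72 against 42.1 at the 5′ promoter and 13 of 60 against 21.8 at the internal one, at Plagl1, with 41 of 53 against 48.2, and at Airn, with 26 of 40 against 31.8. The bin at the upstream edge of the Grb10 5′ promoter had 20.5% MM on 263 calls and the other 2 had 5.47% and 0%.

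CC changed within a few bins at the borders of several cores. Bins before and after a core are named here in the order of the chromosome. Peg3 and Snrpn lie on the minus strand, so for them the bins before the core are downstream along the gene. At Peg3, CC in replicate 1 was 3.39% in the bin that starts 3 kb before the core, 18.0% on 4 sites in the next and 75.7% in the last before the core, and then stayed between 79.1% and 89.7% across the 4 bins of the core, before dropping to 42.8% in the next bin and 3.12% in the one after. Replicate 2 gave 72.9% in the bin before the core, between 77.3% and 87.3% within it and 46.9% after it. At Plagl1 the bins on either side of the core had 22.1% and 10.8% CC in replicate 1, against 60.1% and 64.7% inside. At Peg10, CC was 13.6% in the last bin before the core, 50.0% on only 28 calls in the first bin of it, and 92.1%, 94.7% and 97.1% in the 3 that follow, and the bin after the core had 1 covered site. Snrpn had no such border, with 75% CC in the bin before its core and 87.3% in the bin after it. Kcnq1ot1 was asymmetric. Its CC stayed at 94.2% in the first bin of the transcript beyond the core and was still 64.4% in the next, whereas 2 kb upstream of the core it was 10.7%.

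**Figure D2:**
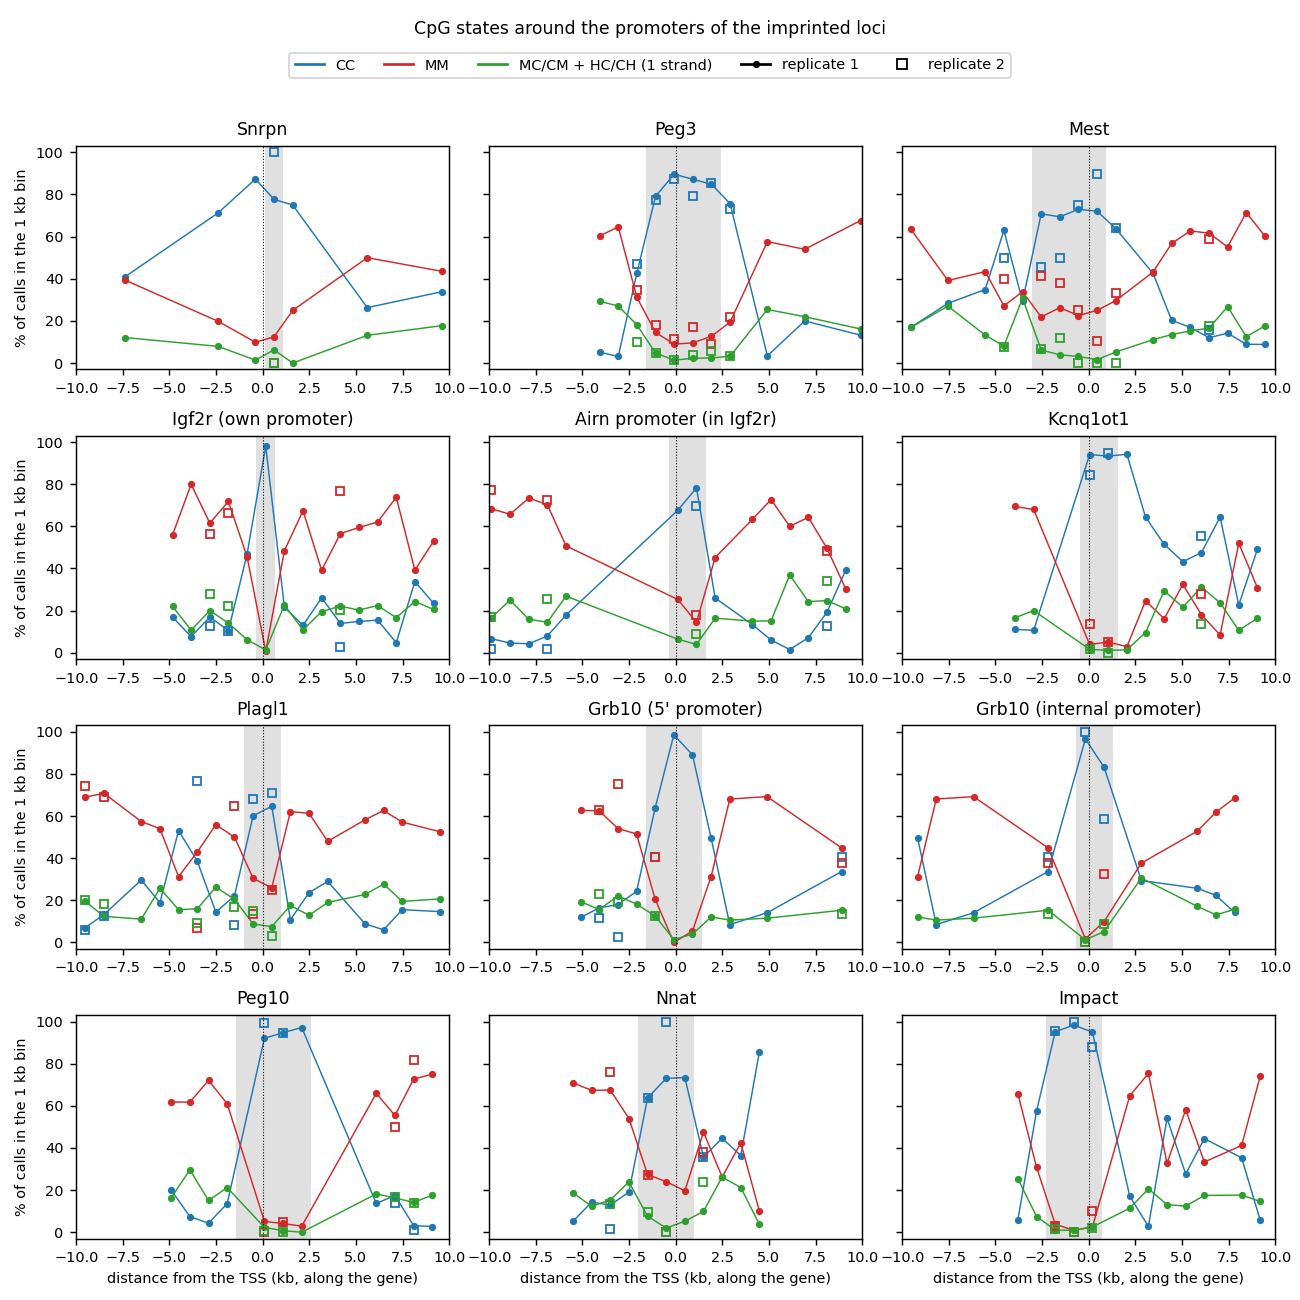
Levels of CC (blue), MM (red) and the states modified on 1 strand (green, MC/CM plus HC/CH) as percent of calls in 1 kb bins within 10 kb of the TSS of each promoter, the x axis running along the direction of the gene. Filled circles joined by lines are replicate 1 and open squares replicate 2, bins with under 5 covered sites or 30 calls are left out, and the grey band is the CpG-rich core. CC is high across most bands, and at Snrpn it is as high beside the band as in it.

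A rule for near-equal mixtures did not single out these loci. A 1 kb bin with at least 5 covered sites and 30 calls was called near-equal where CC and MM each made up 30 to 60% of its calls. In replicate 1, 40 of 415 bins of the loci (9.64%) were called, beside 10.2% of all 1237006 bins tested in the genome. In replicate 2, 12 of 118 (10.2%) were called, beside 8.82% of 256646. In both replicates 6 of 118 bins were called, beside 4.53% of 254693. The share of the loci is near the background in each case and is no result about them.

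The share was lowest at Peg10, with 0 of 14 bins, and highest at Snrpn and Impact, with 6 of 30 each, in replicate 1, where Grb10 had the highest count with 9 of 83. In replicate 2 it went from 0 at Snrpn, Igf2r, Kcnq1ot1 and Peg10 to 3 of 9 at Mest, and Grb10 again had the highest count with 4 of 24. Peg3, Plagl1, Grb10 and Nnat had at least 1 bin called in both. None of the 10 genes had a near-equal window of 1 kb on either side of its most CpG-rich TSS in either replicate, where 7.86% of 28689 such windows were called in replicate 1 and 7.03% of 20829 in replicate 2, and 2.91% in both.

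**Figure D3:**
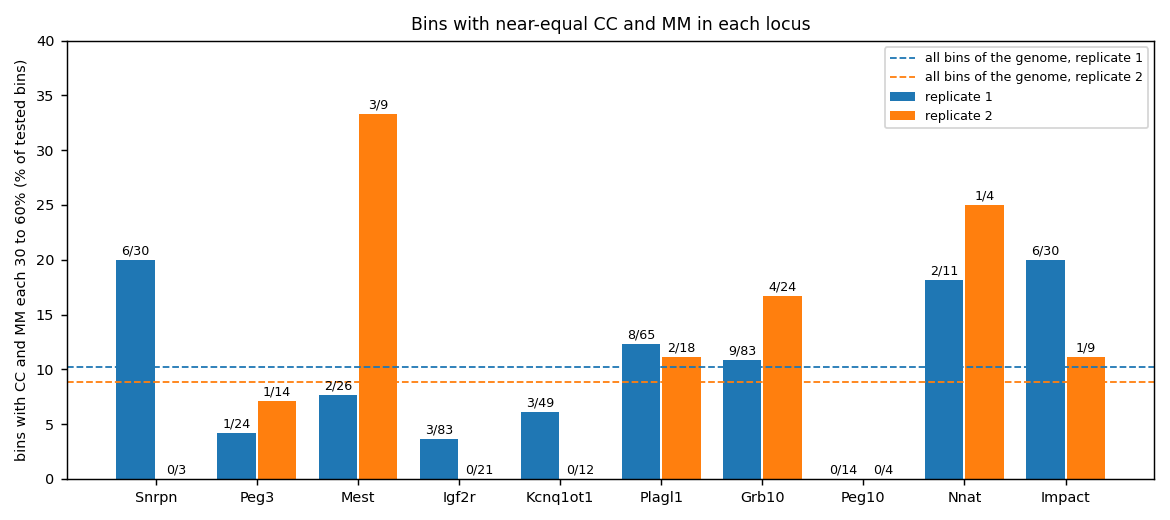
Percent of tested 1 kb bins in which CC and MM each made up 30 to 60% of calls, by locus, for replicate 1 (blue) and replicate 2 (orange), with called and tested bins written above each bar. Dashed lines are the same share over all bins of the genome, 10.2% and 8.82%, and the loci fall on both sides of them.

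Of the near-equal bins, 0 of 40 in replicate 1 and 4 of 12 in replicate 2 lay inside a core. The 4 were in Mest (45.7% CC and 41.3% MM on 46 calls, and 50.0% and 37.9% on 58) and in Grb10. There the 5′ promoter had 40.4% of each on 47 calls and the internal promoter 58.7% CC and 32.6% MM on 46. In replicate 1 the same Mest bins had 70.8% CC and 21.9% MM, and 69.4% and 26.3%. At Peg3 the bin just upstream of the core (chr7:6732001-6733000) had 42.8% CC and 31.2% MM on 138 calls in replicate 1 and 46.9% CC and 34.7% MM on 49 calls in replicate 2. At Igf2r the bin upstream of the gene's own promoter (chr17:12770001-12771000) had 46.9% CC (interval 38.6 to 55.4%) and 45.5% MM (37.2 to 54.0%) on 145 calls over all 16 of its CpGs in replicate 1. Replicate 2 read only 1 of these CpGs. At Nnat the bin that covers the end of the gene (chr2:157562001-157563000) had 35.6% CC and 47.5% MM on 101 calls, and 35.7% CC and 38.1% MM on 42 calls. In Impact the bin before the core had 57.4% CC and 30.9% MM on 94 calls in replicate 1.

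Further such bins lay within the genes. In Plagl1 the bin chr10:13127001-13128000, most of it exonic and 36.5 kb beyond the TSS, had 40.8% CC and 32.2% MM in replicate 1 (174 calls) and 35.8% CC and 32.1% MM in replicate 2 (53 calls). It carried much HM/MH in replicate 1 (10.3% of calls, and 1.89% in replicate 2) and HC/CH in both (8.62% and 15.1%). In Grb10 a mostly intronic bin (chr11:11943001-11944000) 93.9 kb from the 5′ promoter had 47.4% CC and 30.7% MM, and 45.2% CC and 35.7% MM. In Mest a bin in an intron 3.5 kb beyond the TSS had 42.6% CC and 43.2% MM on 162 calls in replicate 1, while 4 covered sites of replicate 2 gave 8.33% CC and 66.7% MM on 24 calls. Snrpn (chr7:59988001-59989000) had 36.4% CC and 45.7% MM on 140 calls, with 42.9% and 39.3% on 28 calls of replicate 2, and the body of Kcnq1ot1 (chr7:143273001-143274000) had 44.6% CC and 33.9% MM on 56 calls, with 42.9% and 33.3% on 21 calls.

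Because the same values chose the near-equal bins, their asymmetric states were read in the replicate that did not choose them. In the 12 bins chosen in replicate 2, replicate 1 had 7.33% MC/CM, 3.76% HC/CH and 3.57% HM/MH on 2046 calls. In the 8 bins chosen in replicate 1 that replicate 2 could read, the levels were 10.7%, 7.87% and 4.21% on 356 calls. The means were 9.0% ± 2.36 for MC/CM, 5.81% ± 2.90 for HC/CH and 3.89% ± 0.456 for HM/MH (SD, n = 2). The 2 values of each mean come from different sets of bins, so the SD is not a spread between replicates alone. All near-equal bins of the genome, read the same way, had 9.37% and 11.2% MC/CM, 6.47% and 6.69% HC/CH, and 4.12% and 3.78% HM/MH in replicates 1 and 2. Of these 3 states, only MC/CM was below the genome in both replicates as a percent of all calls. Read this way, the bins of the loci had 56.8% and 48.6% CC, against 41.2% and 33.2% in the genome. Their MM was 28.0% and 28.1%, against 38.3% and 44.7%. More CC leaves less room for every other state, and among modified calls MC/CM was not lower in the loci.

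HM/MH needs its background beside it, since fully methylated DNA was also called HM/MH. In the Lambda control 3.88% of calls were HM/MH in replicate 1 and 0.340% in replicate 2. Because CC calls make up much of the near-equal bins, the share of modified calls is the fairer measure. HM/MH was 8.27% of 883 modified calls in replicate 1 (exact 95% interval 6.54 to 10.3%) and 8.2% of 183 in replicate 2 (4.66 to 13.2%), against 3.89% and 0.343% of modified calls in Lambda and 7.01% and 5.65% in all near-equal bins of the genome.

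In the CpG-rich cores the modified molecules were mostly modified on both strands. A modified call is any call other than CC, and the 1-strand share is the part of modified calls that are MC/CM or HC/CH. In Mest it was 13.0% of 301 modified calls in replicate 1 (39 calls, exact 95% interval 9.38 to 17.3%) and 13.2% of 76 in replicate 2 (interval 6.49 to 22.9%). Nnat had 18.6% of 183 and 32.4% of 34, Peg3 19.4% of 134 and 22.0% of 41, Airn 19.3% of 88 and 33.3% of 21, and Plagl1 21.6% of 176 and 26.5% of 49. In the Lambda control the share was 3.68% and 6.56%, below the interval of Mest in replicate 1 and inside it in replicate 2. Within 1 kb of the Mest TSS alone the share was 8.33% in replicate 1 and 0% in replicate 2, so its size depends on the window.

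The cores with little modification gave less precise shares. In replicate 1 the share was 20.8% of 48 modified calls at Kcnq1ot1, 25.0% of 80 at Peg10, 31.9% of 47 at the internal promoter of Grb10 and 38.2% of 34 at Impact, and their intervals overlap. In the unmethylated pUC19 control 98.5% of the few modified calls of replicate 1 were on 1 strand. Corrected with the call rates of the spike-in duplexes, the 4 shares became 14.5%, 16.8%, 25.2% and 20.9%. In replicate 2 they were 8.33% of 24 modified calls at Kcnq1ot1, 7.14% of 14 at Peg10, 21.1% of 19 at the internal promoter of Grb10 and 22.2% of 9 at Impact. At the 5′ promoter of Grb10 it was 36.1% of 119 (interval 27.5 to 45.4%), with an interval above that of Mest, but 6 of 30 modified calls in replicate 2. Among the 11 cores with at least 20 modified calls in replicate 1 the median was 21.6%, and among 7 in replicate 2 it was 22.0%.

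If each strand had been modified independently at the rate seen in a core, 1-strand states would have made up 39.2% of the calls of Mest in replicate 1, where 3.71% were found. The corresponding values were 41.0% and 5.90% for Nnat, 44.1% and 7.93% for Plagl1, and 24.5% and 3.08% for Peg3. The rate is pooled over a core, so any mixture of modified and unmodified molecules or sites falls below the independent value. The gap is therefore no result about the loci. All near-equal bins of the genome chosen in replicate 2 and read in replicate 1 had 50.0% and 15.8%. Over all CpGs of the genome 22.5% and 22.7% of modified calls were on 1 strand, so both-strand modification was the rule outside the loci too.

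Set beside all CpG-rich bins in the same range of MM, the bins of the loci had a lower median 1-strand share. Of all 1 kb bins with at least 20 reference CpGs, MM between 10 and 40% and at least 20 modified calls, 22785 in replicate 1 had a median 1-strand share of 32.4%, and 25% of them fell below the lower quartile of 27.3%. The 19 such bins of the loci, from 8 of the 10 genes, had a median of 21.4%, and 15 of 19 fell below that quartile. The bin over the Mest TSS was lowest, at 5.81% of 86 modified calls, followed by a bin of Nnat at 7.41% of 27. In replicate 2 only 6 bins from 3 loci qualified, with a median of 25.0% beside 35.3% of 6910 bins. There 4 of 6 fell below the lower quartile of 28.6%, beside 24.1% of all.

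The 4 bins of replicate 1 above the quartile were at the upstream edge of the Grb10 5′ promoter (34.7%), in the Plagl1 span away from its core (34.3%), at the far end of the Kcnq1ot1 span (39.4%) and in the Snrpn core (28.0%). The HC/CH level of the 19 bins had a median of 2.63% of calls, against 7.05% of all such bins, and MC/CM a median of 3.16% against 6.19%. In replicate 2 the medians were 2.87% against 8.51% for HC/CH and 7.69% against 8.57% for MC/CM. Neighbouring bins can share molecules and are not independent, and no test was made of these medians.

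**Figure D4:**
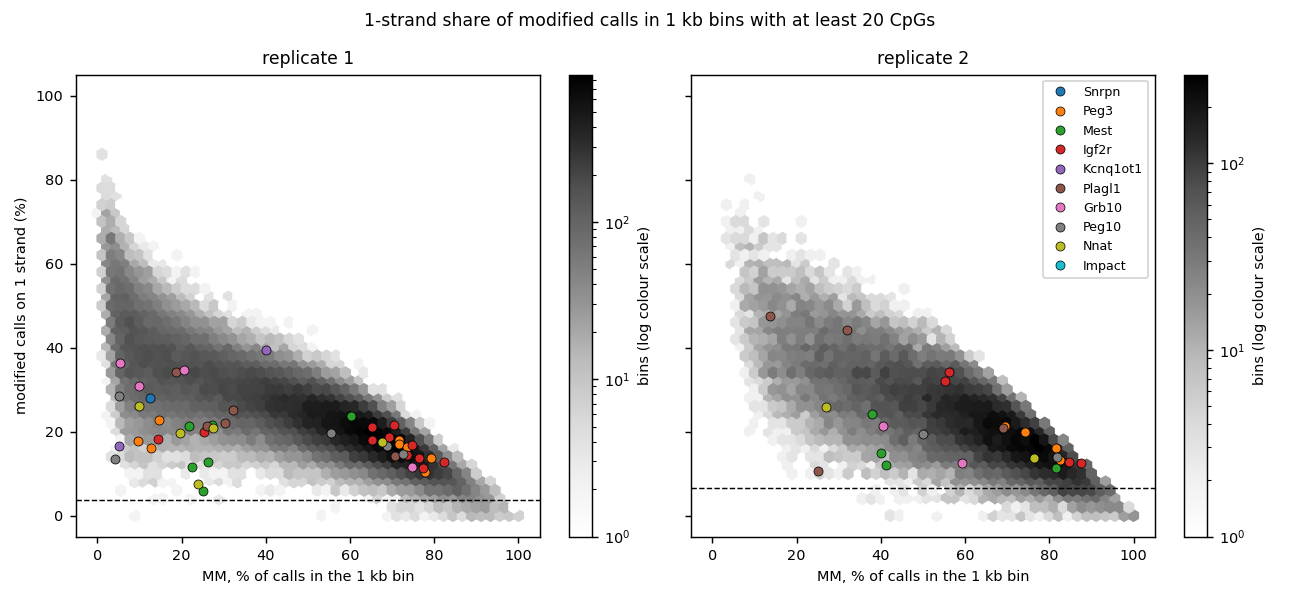
Share of modified calls on 1 strand (MC/CM plus HC/CH, percent) against MM (percent of calls) in 1 kb bins with at least 20 reference CpGs and at least 20 modified calls, replicate 1 at the left and replicate 2 at the right. Grey hexagons count all such bins of the genome on a log colour scale, coloured points are bins of the loci, and the dashed line is the share in the Lambda control (3.68% and 6.56%). In replicate 1 the bin over the Mest TSS is the lowest point of the loci at MM of 20 to 30%, while other Mest bins lie higher.

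For each gene of the genome the makeup of modified calls within 1 kb of the TSS was compared with that of the rest of its span by a two-sided Fisher's exact test on calls, with Benjamini-Hochberg adjustment over the 23233 genes testable in replicate 1 and the 10828 in replicate 2. Calls of neighbouring CpGs can come from 1 molecule, so these p-values are too small to the extent that they do. All 10 genes could be tested in replicate 1 and 5 in replicate 2.

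In Mest, HC/CH made up 1.39% of the 144 modified calls of the window and 7.40% of the rest (adjusted p = 0.0176, Fisher's exact test), in a direction taken by 1.24% of genes. In Grb10 it rose from 6.07% to 26.7% of 30 modified calls at the 5′ promoter (adjusted p = 0.00282, Fisher's exact test), in the direction taken by 24.7% of genes. In Impact, MC/CM rose from 14.8% to 50.0% of 24 modified calls (adjusted p = 0.00905, Fisher's exact test), as in 1.68% of genes. The Impact window had 96.3% CC and 1.87% MC/CM of all calls, where unmodified spike-in duplexes were called MC and CM at 0.324% each. How far miscalls raised this share was not tested. No member passed for lower MC/CM, as 1.13% of genes did, although it was 6.94% against 14.7% in Mest and 10.0% against 17.0% in Plagl1 (adjusted p = 0.134 and 0.148, Fisher's exact test), and none passed for HM/MH, where 1.34% of genes were higher and 0.0172% lower. With a window of 2 kb on either side none of these 3 calls passed (adjusted p = 0.0735 for Mest, 0.113 for Grb10 and 0.716 for Impact, Fisher's exact test), while Mest passed there for lower MC/CM (6.99% against 15.2%, adjusted p = 0.01, Fisher's exact test). The share of all genes called with that window was not counted, so how unusual the Mest call is there cannot be told. With sites of at least 10 calls Grb10 passed and Mest did not (adjusted p = 0.038 and 0.145, Fisher's exact test). The difference at Mest was -5.77 percentage points there, against -6.01 over all sites. Only 8 members were testable at this setting, and Impact was not among them.

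In replicate 2 none of the 5 testable members passed for any of the 3 states. There the genes called were 0.0185% lower and 0.0554% higher for MC/CM, 0.0462% lower and 7.77% higher for HC/CH, and 0% lower and 1.15% higher for HM/MH. HC/CH in the Mest window was 0% of 24 modified calls against 5.0% of the rest, and in Grb10 it was 19% of 21 against 5.38%. Impact, with 9 modified calls, was not testable there.

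Of the list of imprinted neighbours, 7 were found in the annotation and 6 could be tested in replicate 1. HC/CH was higher than in the rest of the gene at Airn (14.5% against 5.77%, adjusted p = 0.0161, Fisher's exact test), at Kcnq1 (21.1% against 5.84%, adjusted p = 0.00104, Fisher's exact test) and at Copg2, next to Mest (13.7% against 4.35%, adjusted p = 0.0298, Fisher's exact test). These 3 of 6 stand beside the 24.7% of all genes called in this direction. Snurf, Usp29 and Sgce start close to Snrpn, Peg3 and Peg10 and passed for none of the 3 states. Airn passed with a window of 2 kb and with sites of at least 10 calls, but not with a window of 500 bp (adjusted p = 0.0336, 0.00659 and 0.362, Fisher's exact test), and was not testable in replicate 2, where Kcnq1 and Copg2 did not pass.

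TGCCGC was in a larger share of bins in the loci than in the genome, and its CpG was mostly CC inside the cores and mostly MM outside them. The motif, searched on both strands as TGCCGC and GCGGCA, was in 26 of 60 CpG-rich bins of the loci (43.3%) and in 29.8% of all 135952 CpG-rich bins of the reference. Over all 1 kb bins the shares were 8.48% of 731 and 5.53%. The motif holds a CpG, and the bins were not otherwise matched for CpG count. Whether the larger shares follow CpG density was not tested. Inside the cores, 35 motif sites covered in replicate 1 had 81.9% CC and 15.2% MM on 282 calls, and 17 in replicate 2 had 91.3% CC and 7.69% MM on 104 calls. Outside them, 29 and 17 sites had 16.2% and 12.0% CC with 58.1% and 68.5% MM. This contrast is not particular to the motif. The cores as a whole were mostly CC, and all CpGs of the loci, cores included, had 50.7% and 54.3% MM. In Mest the motif sites had 22.5% MM on 40 calls and the other sites of the core 24.0% on 1010 calls in replicate 1. In Nnat these were 27.3% on 44 calls and 24.2% on 532 calls, and in Plagl1 15.0% on 20 and 27.9% on 459. The motif sites also had more MM than the other sites in Peg3 (21.1% against 11.7%), Airn (28.6% against 19.6%), Snrpn (16.7% against 11.0%) and the 5′ promoter of Grb10 (14.3% against 10.7%), on 7 to 30 calls, and less at the internal promoter of Grb10 (0% on 21 calls against 6.05%). At Kcnq1ot1 (5.56% against 4.62%), Peg10 (5.56% against 4.92%) and Impact (2.27% against 2.09%) the values were close. In replicate 2 the motif sites had less MM than the other sites in Mest (18.2% against 26.8%), Peg3 (0% against 13.7%), Kcnq1ot1 (0% against 10.4%), Impact (0% against 3.24%) and the internal promoter of Grb10 (0% against 19.7%), and more in Nnat (18.2% against 16.5%), on 5 to 22 calls at motif sites, so Peg3 changed direction between replicates. No test was made of these pairs.

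The 6 further genes listed as maternally methylated were read for comparison in the same kind of core, at the most CpG-rich TSS of each. Internal promoters were not read for them, so a core, such as that of Inpp5f, need not be the imprinted promoter. These cores ran from nearly unmodified to more MM than any member. Zrsr1 had 95.5% and 94.1% CC, Slc38a4 97.1% and 90.6%, and Mcts2 83.1% and 87.0%, in replicates 1 and 2. The level of Slc38a4 depends on the limits, since within 1 kb of its TSS replicate 1 had 70.0% CC and 19.3% MM on 367 calls. Nap1l5 (68.5% CC and 21.1% MM, then 44.3% and 48.1%) and Inpp5f (62.9% and 26.0%, then 56.2% and 26.9%) lay near Mest and Plagl1 in replicate 1, while Nap1l5 had more MM than either in replicate 2. Peg13 had 48.9% CC and 40.5% MM on 509 calls in replicate 1 and 34.9% CC and 57.8% MM on 109 calls in replicate 2, so that it was the closest of the 6 to an equal split in replicate 1 and Nap1l5 was in replicate 2. The 1-strand shares of modified calls in these cores were 15.4% and 6.90% for Zrsr1, 18.5% and 11.3% for Peg13, 24.3% and 35.6% for Mcts2, 24.4% and 13.6% for Nap1l5 and 25.6% and 33.3% for Inpp5f in replicates 1 and 2, and Slc38a4 had 57.1% of 14 and 87.5% of 8 modified calls. Mcts2, Nap1l5 and Inpp5f, whose MM was between 10 and 40% in replicate 1, lay below the lower quartile of 27.3% of bins in that range there. Inpp5f, in that range also in replicate 2, lay above the quartile of 28.6%. Of the paternally methylated genes, whose mark is laid in the male germ line, Meg3 had 74.9% CC and 16.6% MM within 1 kb of its TSS in replicate 1, H19 26.5% and 59.0%, and Rasgrf1 96.3% and 1.67%. In replicate 2 Meg3 had 80.0% and 15.7% and Rasgrf1 93.6% and 0%, while H19 had only 2 covered sites. These are TSS windows and not cores, and whether they hold the germ-line mark was not examined.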

How the data were processed

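SCoTCH-seq was performed by the authors on genomic DNA of 2 passages of E14 cells. Per the sample labels, reads were handled with cutadapt 4.6 and Picard 3.1.1 on mm10. The deposited tables hold, for each covered CpG and state, the count of calls and its percent of the calls at that site, as made by the authors, for sites with at least 5 calls. Counts are summed here and percents recomputed. TSS and spans are from GENCODE vM21, sequence from RefSeq GRCm38. The members, gene lists and rules were chosen with earlier results of these data known, and the CpG-rich cores after the values were seen. For each locus the text names the near-equal bin with the most calls in replicate 1, those called in both replicates first. Spike-in duplexes of known state gave call rates for a corrected alternative. Intervals are exact 95% Clopper-Pearson intervals and cover counting error only. They take calls as independent, which calls of 1 molecule are not. Fisher's exact tests were adjusted by Benjamini-Hochberg over all genes tested, with a threshold of 0.05. Tests and intervals used SciPy 1.17.1 under Python 3.11.15, and the calculations were tested on simulated data. Mestit1, on the list of neighbours, was not found in the annotation by that name.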

Additional observations from a re-analysis of the deposited data

How the results depend on the processing

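No paired analysis was possible because there is 1 group of 2 samples. The count of near-equal bins followed the rule that defines them. In replicate 1 it was 77 with limits of 25 to 65%, 13 with 35 to 55%, 13 with at least 10 sites and 60 calls and 21 with sites of at least 10 calls, against 40. In replicate 2 it was 0 under each of the last 2 settings, 6 with bins shifted by 500 bp and 4 with bins of 500 bp, against 12. Loci with a bin in both replicates numbered 2 with 35 to 55%, 2 with shifted bins and 0 with bins of 500 bp, against 4, and leaving out a replicate gave 6 to 9. HM/MH in near-equal bins was 3.1% after correction with the spike-in rates, against 3.89%, and leaving out a replicate gave 3.57 to 4.21%. In the window test, members called for MC/CM in replicate 1 numbered 0 with windows of 500 bp on either side and 0 with sites of at least 10 calls, against 1, and the 1 called with 2 kb was Mest in place of Impact. For HC/CH they numbered 0 with 500 bp, 0 with 2 kb and 1 with sites of at least 10 calls, against 2. With 500 bp only 4 members were testable. In cores, chosen after the values were seen, MM stayed within its interval in 24 of 24 cases after the spike-in correction, and moved beyond it in 11 of 16 with sites of at least 10 calls, 4 upward and 2 downward in replicate 1 and 2 upward and 3 downward in replicate 2. The 1-strand share of Mest in replicate 1 was 9.18% after correction and 8.33% in the TSS window, and that of Impact 20.9% and 58.3%. Coverage limits replicate 2 more than replicate 1, since it read 3.67 to 37.6% of the CpGs of a core, against 21.1 to 79.2%. Whether modified and unmodified molecules of these CpG-dense regions were recovered equally was not tested.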

Other observations

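Downstream of the Kcnq1ot1 core, within the transcript, 4 adjacent bins of replicate 1 held CC and modified calls with many of the latter on 1 strand. In the bins that begin at 143289001, 143290001, 143291001 and 143292001 on chromosome 7, CC was 64.4%, 47.5%, 43.2% and 51.5% of 59, 61, 37 and 68 calls, and 66.7%, 59.4%, 38.1% and 60.6% of the 21, 32, 21 and 33 modified calls were on 1 strand. In replicate 2 only the bin that begins at 143290001 met the minimum, with 55.6% CC on 36 calls and 31.2% of 16 modified calls on 1 strand. These Kcnq1ot1 bins were picked after their values were seen, and no test was made.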
